A study of Mus musculus with 8 samples.

Results

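The genes described here encode the non-collagen part of the extracellular matrix and the enzymes that mature and crosslink collagen. The list held 46 genes, and 42 of them were measured, among 12393 genes on the array. A gene was counted as measured where a probe set carried its symbol alone, and the probe set with the highest mean over the 8 arrays stood for it. Spp1, Fbn1 and Efemp2 were not analysed here, nor was Loxl2, whose probe set carried several gene symbols. By role, the measured genes were 12 adhesive and matricellular glycoproteins, 6 small leucine-rich proteoglycans, 12 genes of elastic fibres and microfibrils, 5 of basement membrane or large proteoglycans, and 7 collagen crosslinkers and processing enzymes.

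The arrays held RNA of 8 mouse tissues, 6 soft tissue sarcomas and 2 muscles, from a model named after undifferentiated pleomorphic sarcoma. All mice were homozygous for floxed p53 (Fl/Fl) and carried the conditional BrafCa allele, either homozygous (Ca/Ca) or heterozygous (Ca/+). Tumours followed injection of an adenovirus expressing the recombinase Cre, and the muscles came from a hind limb that bore no tumour. There were 4 Ca/Ca sarcomas, numbered 1, 2, 3 and 5, 2 Ca/+ sarcomas, numbered 1 and 2, and 1 muscle of each genotype. The muscles therefore had the same inherited Braf and p53 alleles as the sarcomas and are no wild-type controls. Only the sarcomas are described as following Cre, so recombination of these alleles cannot be told apart from tissue. Age, sex and the cells that took up the virus are not stated in the labels, nor is whether each array came from its own animal. The p-values therefore reflect how these 8 samples vary, which may be technical in part. The values were log2 expression, on which a difference of 1 is a 2-fold change, and the number of arrays limits their precision.

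Matrix glycoproteins such as fibronectin and the tenascins bind collagen, growth factors and integrins, the cell's matrix receptors. Small leucine-rich proteoglycans coat collagen fibrils and limit their thickness. Microfibrils form the scaffold on which elastin is laid down and hold latent TGF-beta through its binding proteins, and lysyl oxidases crosslink both elastin and collagen. In skeletal muscle these proteins make up the sheaths around fibres and bundles, and resident fibroblasts are their main source.

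Several values of the whole series bear on every result. All 10 skeletal muscle marker genes were lower in sarcomas (median difference -4.51), and of 10 fibroblast markers 3 were higher (Thy1, Pdpn and Twist1) and 0 lower. All 6 adipocyte markers were lower in sarcomas, as were 6 of 8 endothelial and 4 of 8 pericyte and smooth muscle markers. Of all genes, 13.1% were higher and 13.2% lower. The summed level of the skeletal muscle list, the log2 of the sum of linear values, still ranged from 10.72 to 13.05 in sarcomas, against 16.55 and 16.43 in the muscles. The part of tissue makeup in the results on matrix genes was not tested, and in bulk tissue fewer cells of a type and less RNA per cell cannot be told apart. A background level was taken from 22 genes of other organs, whose mean log2 levels had an upper quartile of 4.58. Among the 42 matrix genes, Comp had a sarcoma mean at or under that level, and none had a muscle value there.

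The first comparison set the 6 sarcomas against the 2 muscles, the design the study states. In sarcomas 4 matrix genes rose and 7 fell: Tgfbi, Matn2, Ltbp1 and Vcan rose, and Prelp, Fmod, Ogn, Dpt, Smoc2, Eln and Comp fell (limma, Benjamini-Hochberg adjusted p under 0.05 over all genes). Drops ranged from at least 2.28-fold for Comp to 16.5-fold for Prelp, whose other probe set gave a smaller one. For Prelp and Fmod 2 of the 6 sarcomas were at or under the background level, so these drops may be lower bounds. Rises ranged from 2.3-fold for Tgfbi to 4.43-fold for Matn2, whose Ca/+ muscle value of 4.63 was near the background level of 4.58. The 11 genes that passed were 26.2% of the 42, beside 26.3% of all genes on the array. By direction, 9.52% of the 42 rose and 16.7% fell, against 13.1% and 13.2% of all genes. At an unadjusted p under 0.05 there were 17 of 42 (40.5%), against 37.9% of all genes. The share that passed was thus near the background, and the account that follows is of which roles moved in which direction. The median difference of the 42 genes was 0.18 on the log2 scale, against 0.026 for all genes, and centring on housekeeping genes turned it to -0.025 while that of all genes went to -0.18.

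**Figure D1:**
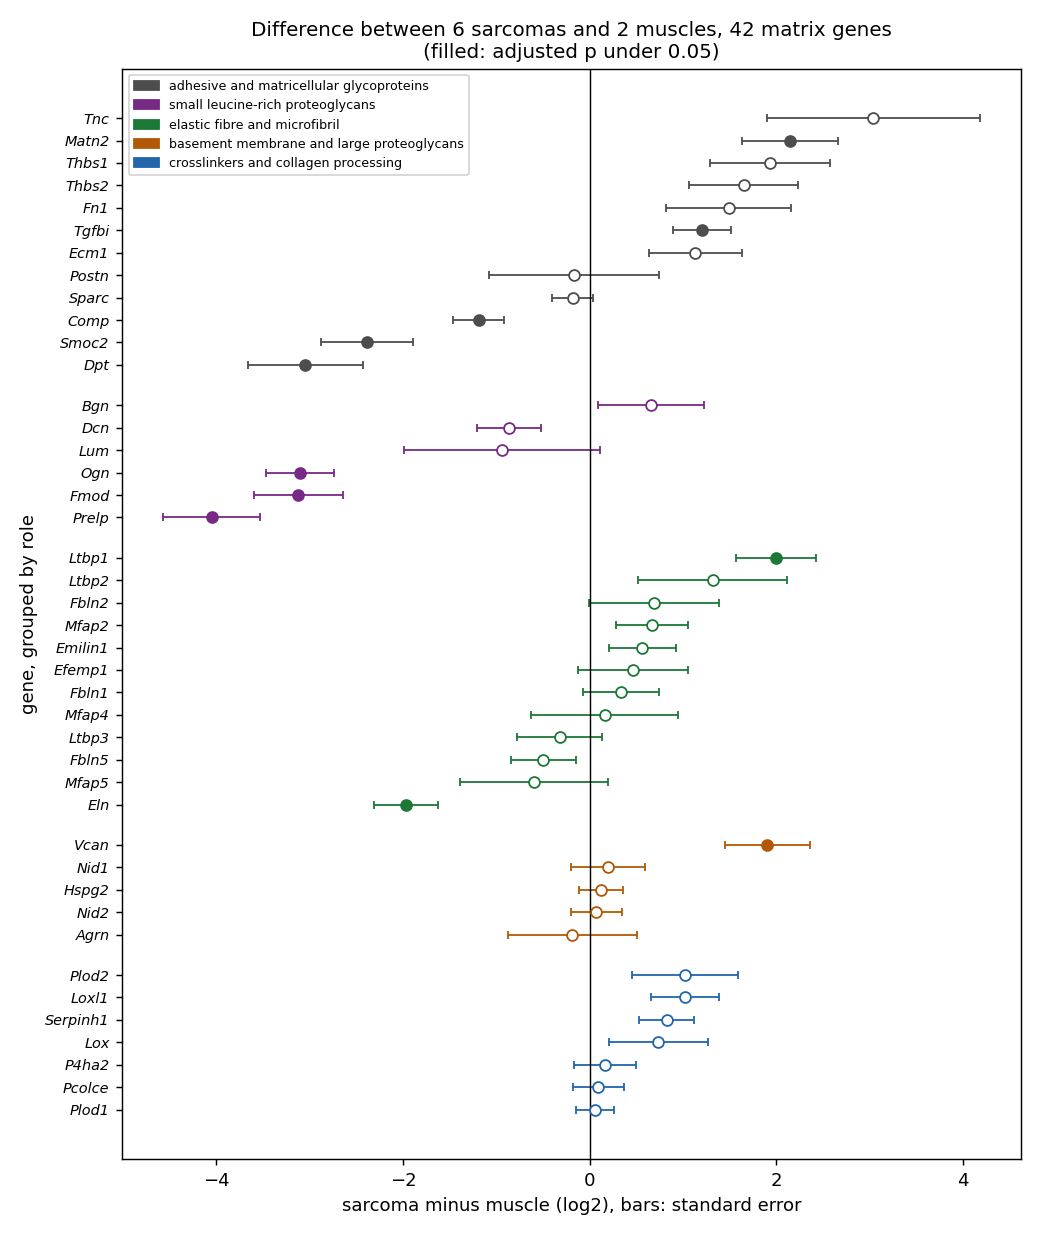
Difference between the mean of 6 sarcomas and the mean of 2 muscles (x axis, log2) for each of 42 matrix genes (y axis, grouped and coloured by role), with bars of 1 standard error from limma. Filled points had an adjusted p under 0.05: 4 lie to the right of 0 and 7 to the left, and 3 of those 7 are small leucine-rich proteoglycans.

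Of the 6 small leucine-rich proteoglycans, 3 fell (Prelp, Fmod and Ogn), none rose, and Dcn, Lum and Bgn did not pass. Their median difference was -2.02, the lowest of the roles, and 5 of 6 had a negative difference, also after cyclic loess and housekeeping centring. Prelp, which encodes a proteoglycan that tethers basement membrane to the connective tissue beneath, had a log2 level of 8.40 in the Ca/Ca and 9.26 in the Ca/+ muscle. Its levels were 4.95, 5.73, 5.00 and 3.49 in Ca/Ca sarcomas 1, 2, 3 and 5, and 4.38 and 5.13 in Ca/+ sarcomas 1 and 2. Every sarcoma was below both muscles, and those of Ca/Ca sarcoma 5 and Ca/+ sarcoma 1 were at or under the background level. Sarcoma means and muscle means were 4.78 ± 0.76 (SD, n = 6) and 8.83 ± 0.60 (SD, n = 2), a difference of -4.05 (SE 0.52, adjusted p = 0.00109). A second Prelp probe set of near-equal level gave a difference of -2.22.

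Fmod encodes fibromodulin, which binds collagen fibrils during their assembly. The muscles had Fmod levels of 7.91 (Ca/Ca) and 8.04 (Ca/+), against 5.18, 5.46, 5.60 and 3.80 in the Ca/Ca sarcomas, in the order 1, 2, 3 and 5 kept from here on, and 4.09 and 5.02 in the Ca/+ sarcomas. The groups did not overlap, and the same 2 sarcomas were at or under the background level. The difference for Fmod was -3.12 (SE 0.48, adjusted p = 0.00251), and its 6 probe sets ranged from -3.12 to -1.50. Ogn, encoding osteoglycin (mimecan), was at 9.80 and 9.74 in the Ca/Ca and Ca/+ muscles. In the sarcomas Ogn was at 6.97, 7.07, 7.34 and 6.31 (Ca/Ca) and 5.84 and 6.49 (Ca/+), all below both muscles by over 2 log2 units. Its difference was -3.10 (SE 0.37, adjusted p = 0.000722), and it passed under all 16 alternatives, while Fmod and Prelp missed the threshold on the Ca/Ca arrays alone, at differences of -2.90 and -3.61 (adjusted p = 0.102 and 0.0826).

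In the RefSeq gene order Prelp and Fmod are neighbours on chromosome 1, and Dcn and Lum on chromosome 10. The second of these gene pairs did not pass: Dcn, encoding decorin, had a difference of -0.87 (SE 0.34, adjusted p = 0.0992), although all 6 sarcomas lay below both muscles. Lum, encoding lumican, varied most of all 42 genes among sarcomas. It stood at 11.01 and 10.47 in the Ca/Ca and Ca/+ muscles. The Ca/Ca sarcomas had Lum levels of 9.83, 10.09, 11.30 and 7.72, and the Ca/+ sarcomas 8.08 and 11.80. Those sarcoma values lay on both sides of the muscles within each genotype, and the difference was -0.94 (SE 1.05, adjusted p = 0.564). Bgn, encoding biglycan, had a difference of 0.66 (SE 0.57, adjusted p = 0.449).

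The promoters of Prelp, Fmod and Ogn are shown because these 3 proteoglycan genes fell. Each is the 200 bases before a RefSeq start (GRCm38.p6), 5' to 3' on the gene's strand. Capitals mark matches, on either strand, to the TATA-box motif TATAAA, the AP-1 motif TGANTCA, the MCAT motif CATTCC or the GC-box motif GGGCGG, and no matches overlap here. Prelp (chr1:133921402-133921601, minus strand) and Fmod (chr1:134037054-134037253, plus strand) held none of them. Ogn (chr13:49607815-49608014, plus strand) held CATTCC on the other strand, beginning 86 bases before the start.
Prelp: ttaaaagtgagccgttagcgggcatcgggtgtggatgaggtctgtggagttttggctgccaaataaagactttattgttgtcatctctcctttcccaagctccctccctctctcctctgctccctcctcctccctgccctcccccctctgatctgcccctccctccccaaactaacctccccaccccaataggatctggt
Fmod: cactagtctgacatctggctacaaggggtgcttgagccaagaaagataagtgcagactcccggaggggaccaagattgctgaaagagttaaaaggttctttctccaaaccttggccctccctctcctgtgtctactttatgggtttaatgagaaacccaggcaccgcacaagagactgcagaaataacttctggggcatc
Ogn: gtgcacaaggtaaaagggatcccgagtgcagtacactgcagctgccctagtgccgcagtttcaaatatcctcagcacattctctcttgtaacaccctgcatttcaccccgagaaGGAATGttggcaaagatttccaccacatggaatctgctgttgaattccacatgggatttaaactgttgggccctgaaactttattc
Over 32851 RefSeq promoter windows of the same length, TATAAA was found in 9.96%, TGANTCA in 5.48%, CATTCC in 10.1% and GGGCGG in 31.0%. A total of 28 of the 42 genes had a window, and 4, 2, 3 and 18 of them, in the same order of motifs, held a match at some start. These counts are per gene, and some genes had more than 1 window. They are therefore not directly comparable with the shares of single windows. Of the other genes that passed, Dpt and both windows of Ltbp1 held none of the motifs, and Tgfbi and Vcan held 1 GC box each. A match is a string of letters in a window and was not compared with any measurement of binding.

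Of the 12 adhesive and matricellular glycoproteins, Tgfbi and Matn2 rose, Dpt, Smoc2 and Comp fell, and 7 did not pass. Tgfbi encodes a secreted adhesion protein that TGF-beta induces. It stood at 10.53 in the Ca/Ca and 9.31 in the Ca/+ muscle, and at 11.06, 11.40, 10.78 and 10.89 in the Ca/Ca and 11.34 and 11.25 in the Ca/+ sarcomas. The sarcomas spanned 0.62 log2 units, all above both muscles, and the lowest sarcoma was 0.25 above the Ca/Ca muscle. The difference was 1.20 (SE 0.31, adjusted p = 0.0215). Without the Ca/+ muscle it was 0.59 and did not pass (adjusted p = 0.220), nor did it pass after cyclic loess (0.92, adjusted p = 0.0536) or housekeeping centring (1.00, adjusted p = 0.0609). Matn2 encodes matrilin-2, an adaptor of filamentous matrix networks. Its muscle values were 5.69 (Ca/Ca) and 4.63 (Ca/+), and its sarcoma values 6.53, 6.95, 6.54 and 7.76 (Ca/Ca) and 8.25 and 7.82 (Ca/+). Both Ca/+ sarcomas were above every Ca/Ca sarcoma, and all 6 were above both muscles. The difference was 2.15 (SE 0.52, adjusted p = 0.0169), and 1.62 without the Ca/+ muscle (adjusted p = 0.185).

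Dpt encodes dermatopontin, which binds decorin and collagen. The muscles were close to each other, at 10.54 (Ca/Ca) and 10.66 (Ca/+), and the sarcomas were at 6.92, 8.43, 8.32 and 6.12 (Ca/Ca) and 7.15 and 8.39 (Ca/+). No sarcoma came within 2 log2 units of a muscle. The Dpt difference was -3.04 (SE 0.62, adjusted p = 0.00841), or 8.25-fold. Smoc2, a calcium-binding matricellular gene, was at 9.34 and 9.00 in the Ca/Ca and Ca/+ muscles. Smoc2 in sarcomas was at 7.11, 6.95, 6.68 and 7.85 (Ca/Ca) and 5.53 and 6.62 (Ca/+), below both muscles throughout. Its difference was -2.38 (SE 0.49, adjusted p = 0.00917), and -1.76 on a second, dimmer probe set. The drop did not extend to Thbs2, the neighbour of Smoc2 on chromosome 17, whose difference was 1.65 (SE 0.58, adjusted p = 0.0701). Comp encodes cartilage oligomeric matrix protein, which is abundant in tendon. Its muscle values of 5.85 (Ca/Ca) and 5.65 (Ca/+) and sarcoma values of 4.75, 4.96, 5.00 and 4.14 (Ca/Ca) and 4.09 and 4.44 (Ca/+) did not overlap. Since 3 of the 6 sarcomas were at or under the background level, its difference of -1.19 (SE 0.27, adjusted p = 0.0142) is a lower bound on the drop. Comp and Smoc2 lost their calls without either muscle (adjusted p from 0.0612 to 0.0924) and Dpt without the Ca/+ muscle (-2.98, adjusted p = 0.0782), at sizes near the full ones. Tendon markers, measured beside these, had 2 of 5 lower in sarcomas (Kera and Chad, whose means were under the background level in sarcomas and in muscles) and 0 higher.

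The 7 glycoproteins that did not pass included the best known of the class. Fn1, encoding fibronectin, was at 11.87 in the Ca/Ca and 9.37 in the Ca/+ muscle. Its levels were 12.07, 12.01, 11.12 and 13.10 in the Ca/Ca and 12.64 and 11.75 in the Ca/+ sarcomas, so that the Ca/Ca muscle lay inside the sarcoma range and the Ca/+ muscle below it. Its difference was 1.49 (SE 0.67) and missed the threshold (adjusted p = 0.141). It was 2.74 against the Ca/+ muscle alone (adjusted p = 0.0229) and 0.24 against the Ca/Ca muscle alone (adjusted p = 0.873). Thbs1 and Thbs2, encoding thrombospondins, had differences of 1.93 and 1.65 (adjusted p = 0.0576 and 0.0701), and Ecm1, a dermal matrix gene, 1.13 (adjusted p = 0.136). Thbs1 passed without the Ca/Ca muscle (2.94, adjusted p = 0.0270) and had a difference of 0.93 without the Ca/+ muscle (adjusted p = 0.495). Sparc, which encodes the collagen-binding protein osteonectin, differed by -0.18 (SE 0.22, adjusted p = 0.597).

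Tnc and Postn encode tenascin-C and periostin, matricellular proteins that are made in wounds and tumour stroma. Tnc was at 9.03 in the Ca/Ca and 4.94 in the Ca/+ muscle, and at 10.04, 9.40, 9.98 and 8.05 in the Ca/Ca and 11.44 and 11.24 in the Ca/+ sarcomas. Ca/Ca sarcoma 5 lay below the Ca/Ca muscle, and all 6 lay above the Ca/+ muscle. Its difference, 3.04 (SE 1.14), was the largest positive one of the 42 but did not pass (adjusted p = 0.0846). Tnc passed without the Ca/Ca muscle (5.08, adjusted p = 0.0199) and without Ca/Ca sarcoma 5 (3.43, adjusted p = 0.0415), and had a difference of 0.99 without the Ca/+ muscle (adjusted p = 0.667). Postn was at 12.23 in the Ca/Ca and 8.62 in the Ca/+ muscle, against 10.89, 10.44, 11.14 and 8.80 in the Ca/Ca and 9.66 and 10.60 in the Ca/+ sarcomas. All 6 sarcomas lay between the muscles, and the difference was -0.17 (SE 0.91, adjusted p = 0.915).

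**Figure D2:**
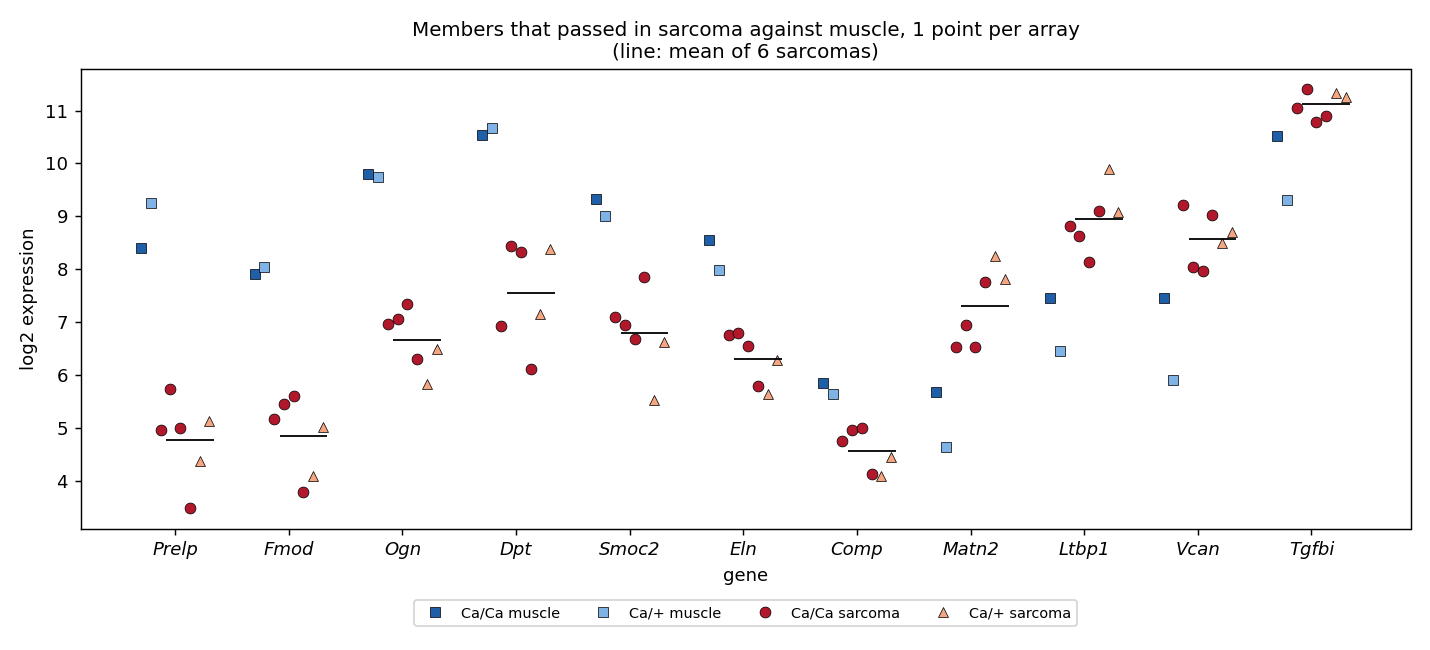
Log2 expression (y axis) of the 11 matrix genes that passed in sarcoma against muscle (x axis), with 1 point per array and a line at the mean of the 6 sarcomas. Sarcomas lie below both muscles for Prelp, Fmod, Ogn, Dpt, Smoc2, Eln and Comp, and above both for Matn2, Ltbp1, Vcan and Tgfbi, where the Ca/+ muscle is the lower of the muscles.

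Among the 12 elastic fibre and microfibril genes, Ltbp1 rose, Eln fell and 10 did not pass. Ltbp1 encodes a latent TGF-beta binding protein, which deposits the inactive cytokine in the matrix. It was at 7.45 and 6.45 in the Ca/Ca and Ca/+ muscles, and at 8.83, 8.64, 8.14 and 9.10 in the Ca/Ca and 9.90 and 9.08 in the Ca/+ sarcomas. All sarcomas were above both muscles, and the difference was 2.00 (SE 0.43, adjusted p = 0.0109). Without the Ca/+ muscle it was 1.49 and did not pass (adjusted p = 0.139). Eln encodes elastin, the core of the elastic fibre. A second and dimmer Eln probe set gave a smaller difference, -1.02. On the probe set used, the level was 8.55 in the Ca/Ca and 7.99 in the Ca/+ muscle. It was 6.76, 6.79, 6.56 and 5.80 in the Ca/Ca and 5.65 and 6.28 in the Ca/+ sarcomas. The groups did not overlap, and the difference of -1.96 (SE 0.34, adjusted p = 0.00429) was still called when either muscle was left out (adjusted p = 0.0413 and 0.0248). Eln lost its call on the Ca/Ca arrays alone (-2.08, adjusted p = 0.0674) and on the Ca/+ arrays alone (-2.02, adjusted p = 0.0570).

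The 10 other genes of this role had differences from -0.60 (Mfap5) to 1.32 (Ltbp2), with adjusted p from 0.252 to 0.908. They included the fibulins Fbln1, Fbln2 and Fbln5 (0.33, 0.69 and -0.50) and the related Efemp1 (0.46). Emilin1, a gene of the elastin-microfibril interface, had a difference of 0.57, the microfibril-associated Mfap2 one of 0.66, and Ltbp3 one of -0.32. Ltbp2, a family member that does not bind latent TGF-beta, was at 6.56 and 6.30 in the Ca/Ca and Ca/+ muscles. The sarcomas had Ltbp2 levels of 9.28, 8.62, 6.84 and 5.92 (Ca/Ca) and 7.43 and 8.42 (Ca/+), so that 5 were above both muscles and Ca/Ca sarcoma 5 was below both. Mfap5 was at 9.23 and 8.35 in the Ca/Ca and Ca/+ muscles, and at 9.63, 8.17, 8.71 and 6.85 in the Ca/Ca and 6.68 and 9.11 in the Ca/+ sarcomas. Within each genotype, the Mfap5 values of the sarcomas fell on both sides of the muscle of that genotype. Mfap4, whose protein binds elastin and microfibrils, was at 7.64 in the Ca/Ca and 5.11 in the Ca/+ muscle, against 6.50, 6.64, 6.88 and 4.73 in the Ca/Ca and 7.11 and 7.37 in the Ca/+ sarcomas. Each sarcoma was below the Ca/Ca muscle, and 5 of 6 were above the Ca/+ muscle.

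Among basement membrane genes and large proteoglycans, Vcan rose and the other 4 did not pass. Vcan encodes versican, the hyaluronan-binding proteoglycan of loose and provisional matrix. Its muscle values were 7.45 (Ca/Ca) and 5.90 (Ca/+), and its sarcoma values 9.21, 8.05, 7.97 and 9.03 (Ca/Ca) and 8.50 and 8.71 (Ca/+). Every sarcoma lay above both muscles, with a difference of 1.90 (SE 0.46, adjusted p = 0.0167). Without the Ca/+ muscle the Vcan difference was 1.13 and did not pass (adjusted p = 0.191). The nidogens Nid1 and Nid2 and perlecan, Hspg2, which link laminin and collagen networks, had differences of 0.20, 0.07 and 0.12 (adjusted p from 0.754 to 0.884). Their signs turned under housekeeping centring, and those of Nid1 and Hspg2 also after cyclic loess. Agrn, encoding agrin, which clusters receptors at the neuromuscular junction, differed by -0.18 (SE 0.69, adjusted p = 0.879).

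None of the 7 crosslinking and processing genes passed in either direction. Their differences were all positive, from 0.06 (Plod1) to 1.02, with a median of 0.74, but those of Pcolce and Plod1 turned negative after cyclic loess, and those of Pcolce, P4ha2 and Plod1 under housekeeping centring. The 3 probe sets of Lox ranged from -0.17 to 0.99, with 1 of opposite sign to the probe set used. Without the Ca/+ muscle 4 of the 7 were negative, Pcolce (-0.17), P4ha2 (-0.098), Plod1 (-0.20) and Plod2 (-0.17), and Lox was at 0.061. Lox, encoding lysyl oxidase, differed by 0.74 (SE 0.53, adjusted p = 0.355) and Loxl1, which acts on elastin, by 1.02 (SE 0.36, adjusted p = 0.0704). Serpinh1, encoding the collagen chaperone HSP47, differed by 0.82 (SE 0.29, adjusted p = 0.0702), with all 6 sarcomas above both muscles. Both passed without the Ca/Ca muscle (1.68 and 1.30, adjusted p = 0.0165 and 0.0270), and without the Ca/+ muscle their differences were 0.36 and 0.35 (adjusted p = 0.603 and 0.570). Pcolce, an enhancer of the procollagen C-proteinase, differed by 0.09, and P4ha2, a prolyl hydroxylase subunit, by 0.16. Plod2, the lysyl hydroxylase that sets the type of collagen crosslink, was at 8.04 in the Ca/Ca and 5.64 in the Ca/+ muscle. The sarcomas had Plod2 levels of 8.32, 7.53, 7.39 and 7.41 (Ca/Ca) and 8.17 and 8.35 (Ca/+). The Ca/Ca muscle lay inside the sarcoma range and the Ca/+ muscle far below it, and the difference was 1.02 (SE 0.57, adjusted p = 0.232). Plod2 passed without the Ca/Ca muscle (2.22, adjusted p = 0.0133) and had a difference of -0.17 without the Ca/+ muscle (adjusted p = 0.867).

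The second question was how the muscles themselves compared, since each genotype had 1 muscle. The Ca/Ca muscle had the higher level for 35 of the 42 genes (83.3%, against 49% of all genes). It was at least 2-fold higher for 15 of them (35.7%), against 4.49% of all genes and 5.66% of the brighter 50% of genes, to which 37 of the 42 belonged. It was at least 2-fold lower for 0 of 42, against 2.53% of all genes. The largest differences were 4.09 for Tnc, 3.61 for Postn, 2.53 for Mfap4 and 2.50 for Fn1, and Plod2 (2.39), Thbs1 (2.02), Vcan (1.55) and Mfap2 (1.52) followed. Bgn, Lox, Loxl1, Emilin1, Tgfbi, Matn2 and Ltbp1 were higher by 1.00 to 1.35. The genes that fell in sarcomas differed little between the muscles, by -0.12 for Dpt, -0.13 for Fmod, 0.05 for Ogn, 0.20 for Comp and 0.34 for Smoc2, with larger gaps for Eln (0.57) and Prelp (-0.86). The median over the 42 genes was 0.72, against -0.0070 for all genes, and under housekeeping centring 0.98 against 0.26. With 1 muscle of each genotype these values have no test, and animal, genotype and dissection cannot be told apart.

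Other lists of genes differed between the muscles as well. Of all genes, 49% were higher in the Ca/Ca muscle, 4.49% at least 2-fold higher and 2.53% at least 2-fold lower. Of 19 collagen chain genes, 17 were higher in the Ca/Ca muscle, 9 of them at least 2-fold. All 12 macrophage markers were higher there, 7 of them at least 2-fold, as were all 10 fibroblast markers, 4 of them at least 2-fold; the latter list holds Fbln1. The 5 Schwann cell markers were higher too, 3 of them at least 2-fold. All 6 adipocyte markers were lower in the Ca/Ca muscle, 5 of them at least 2-fold, and the 10 skeletal muscle markers were higher, none by 2-fold. All 5 tendon markers were higher there too, 3 of them with a mean over the arrays at or under the background level. Higher in the Ca/Ca muscle were 3 of 6 cartilage and bone, 2 of 8 endothelial, 2 of 8 pericyte and smooth muscle, and 0 of 6 T cell markers. Summed levels in the Ca/Ca and Ca/+ muscles were 14.19 and 13.08 for macrophage markers, 12.63 and 11.49 for fibroblast markers, and 13.46 and 14.55 for adipocyte markers. In sarcomas these sums ranged from 13.53 to 14.72, 12.79 to 13.81 and 9.57 to 11.45. Of the genes in these sums, the adipocyte markers Lep and Pparg were at or under the background level in their sarcoma means. So was the macrophage marker Fcgr1 in the Ca/+ muscle. No fibroblast marker was there in the sarcoma mean or in either muscle. The part of these cell types in the muscle difference was not tested.

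Set against each muscle alone, the sarcomas gave different lists. A total of 17 of the 42 genes (40.5%) had all 6 sarcomas above the Ca/+ muscle with a mean at least 2-fold higher, against 10.5% of all genes. Against the Ca/Ca muscle there were 3 such genes, Matn2, Ltbp1 and Vcan (7.14%, against 5.5% of all genes). In the opposite direction, 8 genes were below the Ca/+ muscle (19%, against 10.7%) and 9 below the Ca/Ca muscle (21.4%, against 8.55%). Whatever the fold, 12 genes had all 6 sarcomas below the Ca/Ca muscle (28.6%, against 23.8%) and 9 below the Ca/+ muscle (21.4%, against 28.4%). All 6 were above the Ca/Ca muscle for 7 genes (16.7%, against 26.8%) and above the Ca/+ muscle for 20 (47.6%, against 27.7%). Both of the 2-fold sets below a muscle held Prelp, Fmod, Ogn, Dpt, Smoc2, Eln and Comp. They were joined by Dcn against the Ca/+ muscle and by Postn and Mfap4 against the Ca/Ca muscle. Relative to both muscles, 7 genes had all sarcomas above (16.7%, against 20% of all genes) and 8 had all below (19%, against 19%). In limma, leaving out the Ca/+ muscle gave 0 genes higher and 4 lower, and leaving out the Ca/Ca muscle 11 higher and 5 lower, the lone muscle being assumed to vary like the sarcomas.

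**Figure D3:**
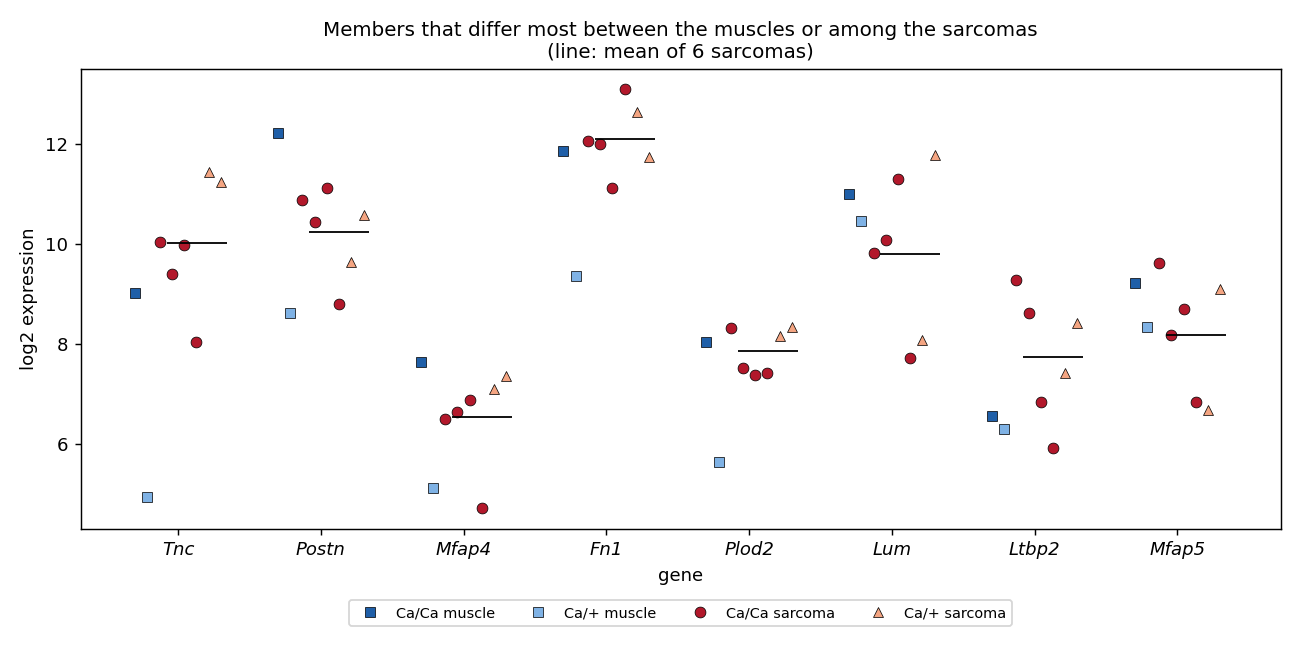
Log2 expression (y axis) of 8 matrix genes with the largest differences between the muscles, the smallest interaction p or the largest spread among sarcomas (x axis), with 1 point per array and a line at the mean of the 6 sarcomas. For Tnc, Postn, Mfap4, Fn1 and Plod2 the muscles lie over 2 log2 units apart, and for Lum and Mfap5 sarcomas lie on both sides of the muscles.

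The third comparison was between Braf genotypes among the sarcomas, 4 Ca/Ca against 2 Ca/+. None of the 42 genes passed (limma, adjusted p under 0.05), as was so for all genes on the array (0%). On simulated data this fit recovered 35.6% of 2-fold changes in genes drawn from the whole array, so a count of 0 does not show equal levels. The median sarcoma SD was 0.65 for the 42 genes and 0.24 for all genes, so the rate for the 42 may be lower. At an unadjusted p under 0.05 there were 4 of 42 (9.52%), against 971 of all genes (7.84%). These were Tnc, Matn2, Smoc2 and Ltbp1. Tnc was lower in Ca/Ca sarcomas by 1.97 (SE 0.57, adjusted p = 0.615), with every Ca/Ca sarcoma below both Ca/+ sarcomas. Matn2 differed by -1.09 (SE 0.38, adjusted p = 0.624), also without overlap, and Smoc2 by 1.07 (SE 0.42, adjusted p = 0.629), with every Ca/Ca sarcoma above both Ca/+ sarcomas. The Smoc2 difference was 0.53 without Ca/+ sarcoma 1 and 1.62 without Ca/+ sarcoma 2. Non-overlap of this kind was seen for 3 genes lower in Ca/Ca (Tnc, Matn2 and Mfap4; 7.14%, against 11.3% of all genes) and 2 higher (Ecm1 and Smoc2; 4.76%, against 9.68%).

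Whether the distance from a muscle of the same genotype differed between genotypes was tested as an interaction, with 4 residual degrees of freedom and each lone muscle assumed to vary like the sarcomas. None of the 42 genes passed, and 1 gene on the array did (0.00807%). At an unadjusted p under 0.05 there were 11 of 42 (26.2%), against 895 of all genes (7.22%), and in each of the 11 the signed distance was the lower one in Ca/Ca. The 3 of smallest p were Tnc, Plod2 and Tgfbi. Tnc in Ca/Ca sarcomas was 0.34 above the Ca/Ca muscle and in Ca/+ sarcomas 6.40 above the Ca/+ muscle, an interaction of -6.06 (SE 1.09, adjusted p = 0.250). Plod2 was at -0.37 and 2.61 on the same measure (interaction -2.99, SE 0.56, adjusted p = 0.280). For Tgfbi the distances were 0.50 and 1.99 (interaction -1.48, SE 0.38, adjusted p = 0.459). The comparison shares its muscles with the values in the preceding paragraphs, so the same muscle difference enters both. On simulated data the interaction fit recovered 0.488% of 2-fold and 38.2% of 4-fold changes in genes drawn from the whole array. Most changes of these sizes would thus be missed, and for the 42 genes, which vary more, recovery may be lower.

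In 4 genes every Ca/Ca sarcoma lay below the Ca/Ca muscle and every Ca/+ sarcoma above the Ca/+ muscle (9.52%, against 1.71% of all genes). They were Sparc, Postn, Mfap4 and Nid2. Sparc had a mean distance of -0.45 in Ca/Ca and 0.17 in Ca/+, and Nid2 one of -0.38 and 0.58. Larger distances were seen for Postn, -1.91 in Ca/Ca and 1.51 in Ca/+, and for Mfap4, -1.46 and 2.13. Their interactions were -3.42 (SE 1.30, adjusted p = 0.666) and -3.58 (SE 1.16, adjusted p = 0.566), neither past the threshold. The opposite arrangement was seen for 0 of 42 genes, against 4.07% of all genes. Each distance rests on a lone muscle. The Ca/Ca muscle was above the Ca/+ muscle by 3.61 for Postn and 2.53 for Mfap4, while Ca/Ca minus Ca/+ sarcoma means were 0.19 and -1.05.

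The last question was how much the sarcomas varied. The median SD of the 42 genes over 6 sarcomas was 0.65 on the log2 scale, against 0.24 for all genes and 0.27 for the brighter 50%. The sarcoma range was at least 2-fold for 30 of 42 genes (71.4%), against 26.8% of all genes and 30.4% of the brighter 50%. An SD of at least 1 was seen for 6 genes, Lum (1.65), Ltbp2 (1.25), Tnc (1.25), Mfap5 (1.21), Agrn (1.07) and Fbln2 (1.06), or 14.3%, against 3.99% of all genes. The steadiest were Plod1 (0.22), Tgfbi (0.25), Sparc (0.29) and Serpinh1 (0.31). By role, the median SD was 0.75 for small leucine-rich proteoglycans, 0.75 for adhesive glycoproteins, 0.65 for elastic fibre genes, 0.51 for basement membrane genes and 0.36 for crosslinkers.

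Individual tumours stood at the ends of these ranges to different extents. Ca/Ca sarcoma 3 was the lowest sarcoma for 17 of 42 genes and Ca/Ca sarcoma 5 for 13, or 40.5% and 31%, while over all genes they were lowest for 19.7% and 20.5%. Those lowest in Ca/Ca sarcoma 5 included Lum, Prelp, Fmod, Dpt, Postn and Tnc. It was also the highest for 10 genes (23.8%), among them Fn1, Thbs2, Ecm1 and Ltbp3, a share near its 23.5% of all genes. Ca/Ca sarcoma 1 was the highest for 13 genes (31%, against 10.9% of all genes), among them Bgn, Nid1, Agrn and Lox, and the lowest for 1 (2.38%, against 16.2%). Ca/+ sarcoma 2 was the lowest for 0 genes, against 16.8% of all genes. The median level of the 42 genes was lowest in Ca/Ca sarcoma 3 (8.03) and highest in Ca/Ca sarcoma 1 (9.06), and the Ca/Ca and Ca/+ muscles had 8.82 and 8.26, while the medians of all genes stayed between 6.33 and 6.46.

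**Figure D4:**
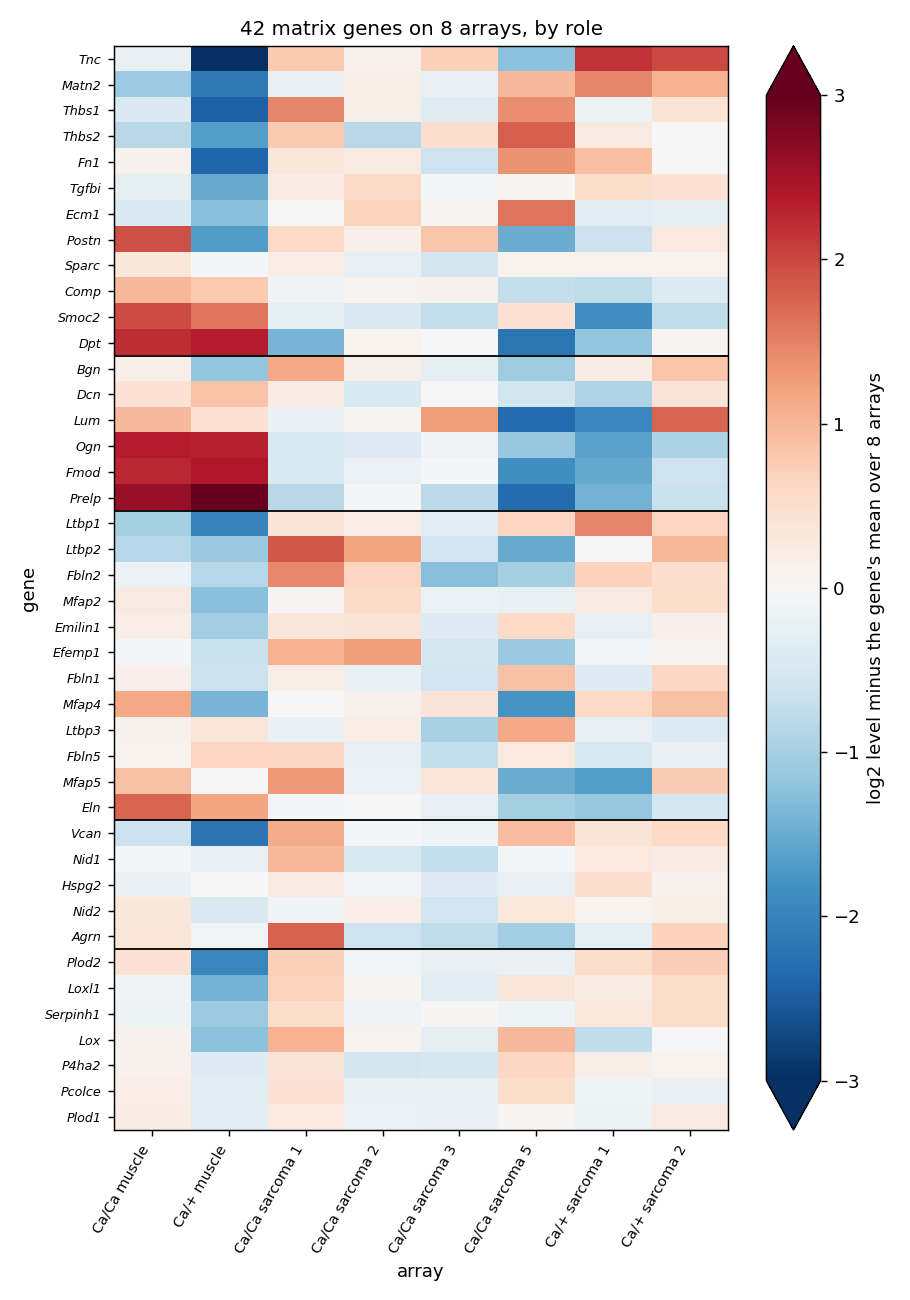
Log2 level minus the gene's mean over 8 arrays (colour, red above and blue below) for 42 matrix genes (y axis, black lines between roles) on 8 arrays (x axis). The Ca/+ muscle is blue for most glycoproteins and crosslinkers, both muscles are red for Ogn, Fmod and Prelp, and Ca/Ca sarcoma 5 is blue for Lum and red for Thbs2.

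The remaining genes of the matrix pathway were read from lists of 142 genes, of which 124 were measured. Beside the counts in sarcoma against muscle that follow, 13.1% of all genes rose and 13.2% fell, and no list was tested as a set. Of 19 collagen chains, Col11a1, a fibril-nucleating chain of cartilage, rose (1.50, adjusted p = 0.00965, a lower bound since its muscle mean was under the background level), 0 fell and 18 did not pass. Of 15 other collagen processing genes 6 rose and 0 fell, led by the prolyl 4-hydroxylase subunits P4ha1 (1.21) and P4hb (0.89) and the prolyl 3-hydroxylase P3h1 (0.91). Of 34 other glycoproteins 2 rose, Ccn2 (1.75) and Ccn4 (1.27), both matricellular, and 4 fell, led by Vtn, encoding vitronectin (-3.36), Tnxb, encoding tenascin-X (-3.30), and Smoc1 (-2.09), the paralog of Smoc2. The sarcoma means of Vtn and Smoc1 were 4.67 and 4.64, near the background level of 4.58. Some sarcomas were under that level for both genes, so these sizes may be lower bounds.

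Of 25 other proteoglycans and hyaluronan genes 3 rose and 5 fell. The 3 were the cell-surface proteoglycans Sdc1 (1.96) and Sdc2 (1.33) and the hyaluronan receptor Cd44 (1.89), which like versican binds hyaluronan. Gpc3 (-2.03) and Spock2 (-1.51) fell to sarcoma means under the background level, so that these sizes are lower bounds, and Chad passed with both group means under it. In all, 11 of the 25 genes had a mean over the arrays at or under that level. Of 16 TGF-beta pathway genes Skil (0.94) rose, and Tgfb2, encoding a ligand (-1.59), and Eng, encoding an endothelial co-receptor (-0.98), fell. Of 15 matrix receptors 4 rose, led by the fibronectin receptor subunit Itga5 (1.83), Itgav (1.30) and Itgb3 (at least 0.85, its muscle mean being under the background level), and 2 fell, Itga7 (-1.82), the laminin receptor subunit of muscle fibres, and Dag1 (-1.53), encoding dystroglycan. In all 6 lists 0 genes passed in the genotype comparison and 0 in the interaction.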

How the data were processed

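Expression was read from the deposited table of log2 values per probe set, which the authors made with RMA (background correction, quantile normalization and probe summary) per the submitters' processing notes. The version of RMA, and whether the 8 arrays were processed as 1 set, are not given in the sources used here. Since RMA gives the arrays near-equal distributions, a change in total RNA per cell is not measured.

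Of 22690 probe sets, 64 were controls, 20380 carried 1 gene symbol in the platform annotation, 691 carried several and 1555 none. The probe set of highest mean stood for its gene, which gave 12393 genes. Groups came from the sample titles. Fits used limma 3.58.1 in R 4.3.3 (lmFit and eBayes), called at 0.05 after Benjamini-Hochberg adjustment across all 12393 genes. They were run on simulated data with known changes, placed in genes drawn from all 12393. The rates are therefore not specific to the 42 genes, which varied more among sarcomas than most genes. The fit of sarcoma against muscle recovered 56.5% of 2-fold and 88.5% of 4-fold changes. Recovery was 35.6% and 75.9% for genotype, and 0.488% and 38.2% for the interaction. Sarcoma against muscle used 8 arrays, genotype the 6 sarcomas, and the interaction 4 group means. Figures used Python 3.11.15 and matplotlib 3.10.9, and promoter windows came from RefSeq (GRCm38.p6).

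All 42 measured genes are accounted for by role. Full values are given for genes that passed, the 3 of smallest p in the other comparisons, and the 4 that differed most between muscles or varied most among sarcomas. Other lists are described by counts and at most 3 called genes per direction. The genes, lists and tests were chosen with earlier results of these data known. Alternatives were another probe set rule, no dim genes, cyclic loess, centring on 9 housekeeping genes, a trended robust prior, genotype as a covariate, each genotype alone, the replicate number as a block, and each array left out.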

Additional observations from a re-analysis of the deposited data

Results flagged for a closer look

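Dixon's test was applied to the 42 genes in the 6 sarcomas and in the 4 Ca/Ca sarcomas, 84 groups in all, of which chance alone would flag about 1 in 20. It flagged 3. Mfap4 was at 4.73 in Ca/Ca sarcoma 5, the lowest of the 6 sarcomas, and the nearest of the others was at 6.50. Agrn was at 8.07 in Ca/Ca sarcoma 1, the highest of the 4 Ca/Ca sarcomas, with the nearest at 5.68. Plod2 was at 8.32 in Ca/Ca sarcoma 1, the highest of the same 4, with the nearest at 7.53.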

How the results depend on the processing

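Without the dimmest 50% of genes, 37 of the 42 genes were left and 4 were called lower, since Comp, Fmod and Prelp were among those removed. Centring on housekeeping genes turned the median difference from 0.18 to -0.025 as it moved the median of all genes by -0.20, and the split of called genes on the array from 1626 higher and 1630 lower to 768 and 1982 (1157 and 1830 after cyclic loess). Leaving out each array in turn gave 0 to 11 genes higher, 4 to 7 lower and a median difference from -0.096 to 0.75. Both ends of the first and last range and the low end of the second came from leaving out a muscle, the Ca/+ muscle (0, 4 and -0.096) or the Ca/Ca muscle (11, 5 and 0.75). On the Ca/Ca arrays alone there were 0 higher and 1 lower, with a median of -0.098, and on the Ca/+ arrays alone 13 higher and 3 lower, with a median of 0.71. The cause of these shifts was not tested. The counts of 0 in the genotype comparison and in the interaction were the same under the 13 and 11 alternatives tried. With the replicate block, which used sarcomas 1 and 2 of each genotype, 0 genes were called and Tnc differed by -1.62 (limma adjusted p = 0.650). Correlations of deviations from the genotype mean were -0.19 for the sarcomas numbered 1 and 0.29 for those numbered 2. They cannot decide whether the numbers are pairs, since the deviations of the 2 Ca/+ sarcomas mirror each other. With 2 muscles, signals near the background level, as for Comp, limit what can be measured.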
